A study of Mus musculus with 6 samples.

Results

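The glutathione peroxidases of the caput epididymis, the first region of the long duct that matures spermatozoa, were followed across 6 RNA sequencing libraries of mouse tissue. The genes were chosen by symbol, Gpx1 and Gpx3 to Gpx8, which gave 7 of the 24346 genes of the table. All 7 passed the filter on low values, a mean of at least 1 FPKM (fragments per length of transcript, scaled to library size), and were tested among 12799 genes. Of the libraries, 3 came from wild-type mice and 3 from mice labelled as Adgrg2 knockouts (KO) of genotype Adgrg2-/Y, all 8 weeks old. Adgrg2 is X-linked and encodes a G protein-coupled receptor of the adhesion class found in the male excurrent ducts. The sources used here do not give the strain, the altered part of the gene or any pooling of animals. The p-values rest on the spread between these libraries, which may be partly technical. In the main test the spread of each gene is also moderated toward a trend over all tested genes.

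Glutathione peroxidases reduce hydrogen peroxide and lipid peroxides, most of them with glutathione as the donor of electrons. The classical enzymes carry selenocysteine at the catalytic site, which is encoded by a UGA codon that would otherwise stop translation, and other members carry cysteine there. In the epididymis these enzymes limit oxidative damage to maturing spermatozoa, whose membranes are rich in polyunsaturated lipids. Gpx5 is the form secreted into the lumen of the caput, where it binds to sperm, and its expression depends on androgen.

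The codon at the catalytic site divides the family, and it is shown here in a window of 30 bases of coding sequence for each member. Each window was read 5′ to 3′ on the coding strand from the GENCODE transcripts of mm10, and capitals mark the catalytic codon or the codon aligned with it.
Gpx1: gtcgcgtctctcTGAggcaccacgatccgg
Gpx3: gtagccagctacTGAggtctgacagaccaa
Gpx4: gtggcctcgcaaTGAggcaaaactgacgta
Gpx5: gtggctacctatTGCggtctgacaatccag
Gpx6: gtggcatccttcTGTggcctgacagctacg
Gpx7: gtagctagcgaaTGTggcttcacagaccag
Gpx8: gtggctagtgacTGCcgcttcacagacaag

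The first 3 windows hold the codon TGA inside the reading frame, and the annotation marks each as selenocysteine. The other 4 hold TGC or TGT, which encode cysteine. All windows lie in coding exons: Gpx1 in exon 1 of 2 at chr9:108339439-108339468 (plus strand), Gpx3 in exon 2 of 5 at chr11:54907244-54907273 (plus strand) and Gpx4 in exon 3 of 7 at chr10:80054725-80054754 (plus strand). Gpx5 (exon 2 of 5, chr13:21291321-21291350, minus strand) and Gpx6 (exon 2 of 5, chr13:21313765-21313794, plus strand) carry the cysteine codon at the same codon number, 73, as the selenocysteine codon of Gpx3. The windows of Gpx7 (exon 2 of 3, chr4:108403415-108403444, minus strand) and Gpx8 (exon 2 of 3, chr13:113045646-113045675, minus strand) fall at codons 56 and 79. Each window begins with a valine codon, and each but that of Gpx8 has a glycine codon directly after the capitals.

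Gpx5 and Gpx6 are neighbours on chromosome 13, with 2737 bases between their RefSeq spans (21286429 to 21292727 and 21295465 to 21319625). Over 221 aligned positions of the encoded proteins, Gpx5 is 63.8% identical to Gpx6 and 65.6% identical to Gpx3, against 31.3% to Gpx8 over 192 positions. The longest identical run between the transcripts is 35 bases for Gpx5 and Gpx6 and 40 bases for Gpx5 and Gpx3. The sources used here do not say how reads that match several genes were counted, so small values of Gpx3 and Gpx6 beside the very abundant Gpx5 carry that uncertainty. In normalized counts Gpx6 was 0.0687%, 0.0706% and 0.0625% of Gpx5 in wild-type libraries and 0.0978%, 0.0520% and 0.0717% in those of the KO, and Gpx3 ranged from 0.171% to 0.664% of Gpx5. Neither ratio was constant across the libraries. The abundance of Gpx5 was not shared by its neighbourhood: the table holds 14 other genes within 200 kb, of which 5 were listed at 0 in every library, and the highest value of any in any library was 27.8 FPKM.

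The normalized counts of the libraries summed to 18136864 to 21455984. Adgrg2 itself read 808, 850 and 841 FPKM in wild-type libraries. In the KO libraries it read 410, 324 and 328 FPKM, lower in each, with a log2 change of -1.24 ± 0.16 SE that missed the threshold (limma, adjusted p = 0.0579). KO replicate 3 stood apart. On the log2(FPKM + 1) scale a gene had a median SD of 0.0669 in wild-type libraries, 0.284 in the 3 KO libraries and 0.145 in KO replicates 1 and 2. Its values also moved with gene length, taken as normalized count per FPKM and split into 5 classes of equal size. The shortest class differed from the wild-type mean by a median of 0.55 in KO replicate 3 and the longest by -0.32, against 0.05 and -0.02 in KO replicate 1 and -0.05 and 0.01 in KO replicate 2. Of the glutathione peroxidases, 5 are in the shortest class, and Gpx3 and Gpx5 are in the next, whose median was 0.22 in KO replicate 3. Values without KO replicate 3 and with the length trend removed therefore stand beside the results they touch.

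The family was dominated by Gpx5 in both genotypes. Gpx5 was the most abundant transcript in each of the 6 libraries and made up 98.0% to 98.7% of the family's summed FPKM. In wild-type the other members followed in the order Gpx4 at 237 ± 3.42 FPKM, Gpx1 at 112 ± 5.13, Gpx3 at 112 ± 10.8, Gpx8 at 92.6 ± 3.49, Gpx6 at 32.7 ± 2.62 and Gpx7 at 13.2 ± 1.06 FPKM (SD, n = 3). The values of Gpx1 and Gpx3 overlapped, and every other pair of neighbours in that order was apart. In the KO the values of Gpx4 and Gpx1, of Gpx1 and Gpx3 and of Gpx3 and Gpx8 overlapped, so the middle of the order was not resolved there.

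**Figure D1:**
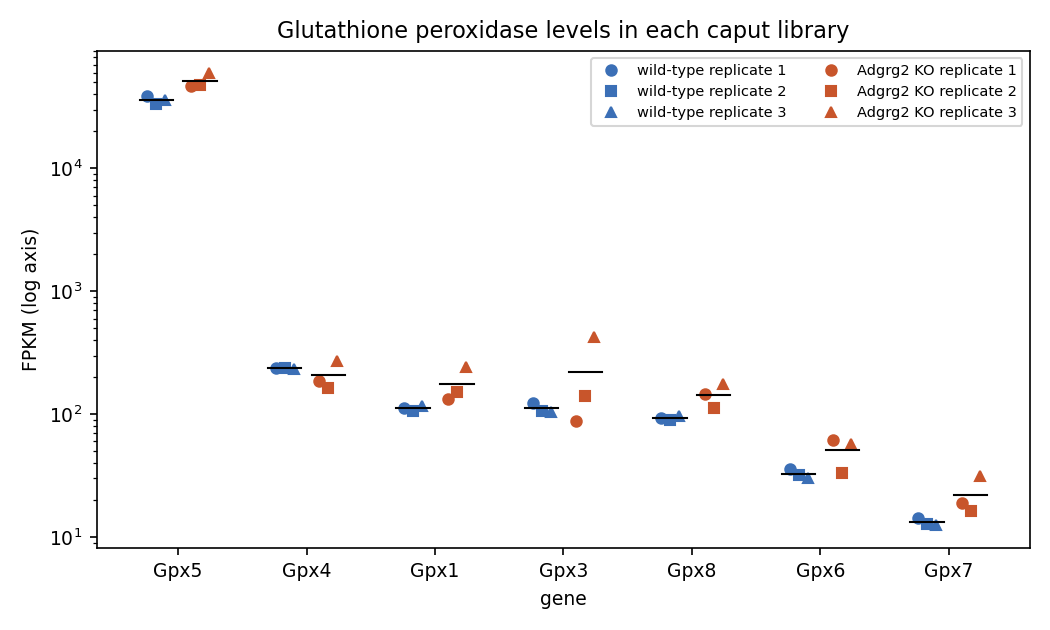
FPKM of each glutathione peroxidase on a log axis, with 1 point per library (blue wild-type, orange Adgrg2 KO, marker shape by replicate) and a line at each mean. Gpx5 stands at 33682 FPKM or more in every library, while the other members lie between 12.5 and 427 FPKM.

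Most members had higher values in the KO, but none passed the threshold. Of the 7, 0 passed at an adjusted p under 0.05 (limma, adjusted p from 0.197 to 0.62), against 0.25% of all tested genes (0.0781% higher and 0.172% lower). An unadjusted p under 0.05, with a higher mean in the KO, was reached by 3 members (Gpx1, Gpx7 and Gpx8), against 17.5% of tested genes in either direction and 9.46% higher. Without KO replicate 3 again 0 passed, against 4.93% of tested genes. In 4 members, Gpx1, Gpx5, Gpx7 and Gpx8, every KO library lay above every wild-type library, which held for 16.8% of all tested genes, and 0 members were lower in every KO library, against 16.1%. For these 4 members it follows that KO replicates 1 and 2 alone also lay above every wild-type library. On those 2 libraries the count was again 4 of the 7 members, against 22.1% of tested genes, a share that includes genes higher in all 3 KO libraries. The median log2 change of the 7 members was 0.60, beside 0.01 over all tested genes. Of the 7, 6 had a positive change, as did 51.6% of tested genes, and Gpx4 had a negative change.

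Gpx5, a secreted form, was at 38528, 33682 and 36279 FPKM in the wild-type libraries, against 47219, 47377 and 59342 FPKM in KO libraries. All KO libraries were higher, by 1.31-fold, 1.31-fold and 1.64-fold over the wild-type mean, and the genotypes did not overlap. The means were 36163 ± 2425 and 51313 ± 6954 FPKM (SD, n = 3), a log2 change of 0.50 ± 0.55 SE that did not pass (limma, adjusted p = 0.62). The test moderates the spread of each gene toward a trend on expression level. Without that trend the SE was 0.13 (limma, unadjusted p = 0.0095, adjusted p = 0.177). With the trend the SE depended on which genes were tested. It was 0.26 with a minimum mean of 5 FPKM and 4.41 with no filter on low values. The p of the main fit thus did not measure the spread of Gpx5 alone. Over all alternatives the adjusted p ran from 0.177 to 1. Without KO replicate 3 the change was 0.39, and with the length trend removed 0.38. Under quantile normalization it was 0 by construction, since the top gene of each library receives the same value.

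Within a library the share of Gpx5 needs no scaling between libraries. Gpx5 took 5.31%, 4.72% and 5.04% of all normalized counts of the wild-type libraries, and 6.30%, 6.94% and 7.35% of those of the KO libraries. All KO shares were above all wild-type shares, with means of 5.03 ± 0.29% and 6.87 ± 0.53% (SD, n = 3, two-sided exact permutation p = 0.1, the smallest that 3 libraries against 3 allow). The 7 members together took 5.08 ± 0.29% and 6.94 ± 0.55% (SD, n = 3, exact permutation p = 0.1). As a share of the summed FPKM, Gpx5 held 4.87% to 5.39% in the wild-type libraries, against 6.45%, 7.34% and 6.37% in the KO, so on this scale KO replicate 3 was not the highest.

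**Figure D2:**
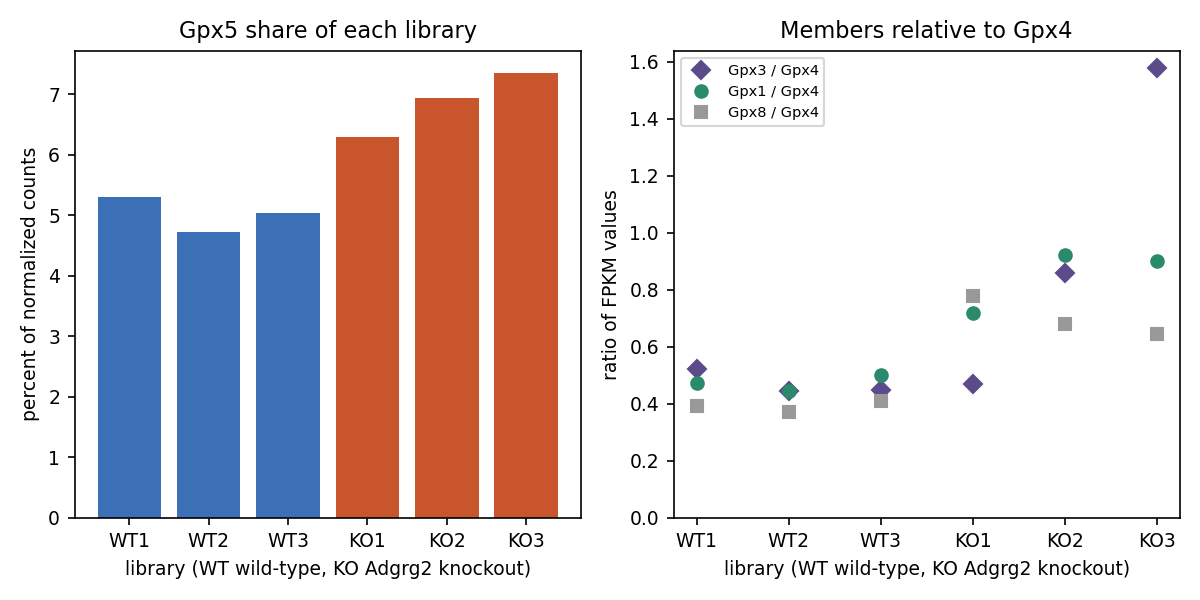
Left, the percent of all normalized counts taken by Gpx5 in each library (bars, blue wild-type, orange KO). Right, the FPKM of Gpx1, Gpx3 and Gpx8 divided by that of Gpx4 in the same library. The Gpx5 share runs from 4.72% to 5.31% in wild-type and from 6.30% to 7.35% in the KO, and the Gpx1 and Gpx8 ratios are higher in every KO library.

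Gpx3, also a secreted form and the main glutathione peroxidase of plasma, was the most variable member. It was at 124, 106 and 105 FPKM in the wild-type libraries, against 87.8, 141 and 427 FPKM in KO libraries. KO replicate 1 lay below wild-type, KO replicate 2 just above it and KO replicate 3 at 3.82-fold the wild-type mean, so the genotypes overlapped. The change of 0.64 ± 0.55 SE did not pass (limma, adjusted p = 0.533), and it was -0.0049 without KO replicate 3 and 1.13 without KO replicate 1. With the length trend removed it was 0.51 (adjusted p = 0.533), and over all alternatives the adjusted p ran from 0.222 to 0.989. The mean of Gpx3 in the KO thus rests on 1 library.

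Gpx6, a relative of Gpx3 known from the olfactory epithelium, was at 35.6, 32.0 and 30.5 FPKM in the wild-type libraries, against 62.2, 33.2 and 57.3 FPKM in KO libraries. KO replicates 1 and 3 were high, at 1.90-fold and 1.75-fold the wild-type mean, and KO replicate 2 lay within the wild-type range. The change was 0.58 ± 0.24 SE (limma, adjusted p = 0.294), and it was 0.47 without KO replicate 3 and 0.42 with the length trend removed. Gpx6 and its neighbour Gpx5 differed in which KO libraries were high: KO replicate 2 was 1.31-fold the wild-type mean for Gpx5 and 1.01-fold for Gpx6.

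Gpx4, which reduces peroxides of membrane phospholipids and is also a structural protein of the sperm midpiece, was the member with a negative change. It was at 238, 239.7 and 233 FPKM in the wild-type libraries and at 186, 164 and 271 FPKM in KO libraries. Its wild-type range was the narrowest of the family on the log2(FPKM + 1) scale, at 0.040. KO replicates 1 and 2 lay below every wild-type library, which held for 22.7% of tested genes, and KO replicate 3 lay above. Over all libraries the change was -0.23 ± 0.20 SE (limma, adjusted p = 0.549). Without KO replicate 1 it was -0.17, without KO replicate 2 it was -0.076 and without KO replicate 3 it was -0.44 (limma, adjusted p = 0.645, 0.789 and 0.0535). With the length trend removed all 3 KO libraries were below wild-type, at 7.50, 7.41 and 7.51 against 7.89, 7.93 and 7.86 on the log2(FPKM + 1) scale, and the change was -0.42 (adjusted p = 0.0763). With both alternatives together, chosen after the data were seen, it was -0.44 and passed (adjusted p = 0.0343), in a fit in which 2.45% of tested genes passed as lower. The range of adjusted p over the alternatives was 0.0343 to 0.789. Spermatids express Gpx4 strongly, and the summed level of a list of spermatid and sperm transcripts was lower in all KO libraries: 12 of 12 genes were in the table, their sum was 166 to 175 FPKM in the wild-type libraries, against 32.2, 15.8 and 12.99 FPKM in KO libraries, and 4 of the 10 tested (Prm1, Oaz3, Ldhc and Dkkl1, with Prm1 at 23.0 and 1.81 FPKM on average) fell (limma, adjusted p from 0.00564 to 0.0438). Of the 10, 9 were lower in every KO library, against 16.1% of all tested genes, and Tssk6 overlapped, at 2.15 FPKM on average in both genotypes. Their part in the Gpx4 values was not tested.

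Gpx1, the abundant enzyme of the cytosol, was at 113, 107 and 117 FPKM in the wild-type libraries, against 134, 151 and 244 FPKM in KO libraries. The genotypes did not overlap, and KO replicate 3 was the highest, at 2.18-fold the wild-type mean. The change was 0.60 ± 0.23 SE (limma, adjusted p = 0.267) and 0.34 without KO replicate 3 (adjusted p = 0.0862, the lowest of all alternatives, the highest being 0.621). With the length trend removed it was 0.42. Red blood cells hold much Gpx1 protein, but the summed level of their markers (5 of 5 genes in the table, mostly Hba-a1 and Hbb-b1) was 132 to 166 FPKM in the wild-type libraries, against 9.08, 34.4 and 8.39 FPKM in KO libraries. Their part in the Gpx1 values was not tested. In bulk tissue fewer cells of a type and less RNA per cell cannot be told apart.

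Gpx7 and Gpx8 are peroxidases of the endoplasmic reticulum that pass the oxidising power of peroxide on to protein disulfide isomerases. Gpx8 was at 93.1, 88.9 and 95.9 FPKM in the wild-type libraries, against 145, 111 and 174 FPKM in KO libraries. Gpx7, the least abundant member, was at 14.4, 12.7 and 12.5 FPKM against 19.1, 16.2 and 31.2 FPKM, which correspond to 235 to 588 normalized counts. For both genes each KO library lay above each wild-type library, KO replicate 2 was the nearest to wild-type and KO replicate 3 the farthest. The changes were 0.60 ± 0.18 SE for Gpx8 (limma, adjusted p = 0.197) and 0.66 ± 0.24 SE for Gpx7 (adjusted p = 0.247). Without KO replicate 3 they were 0.45 and 0.39, and with the length trend removed 0.42 and 0.49. The encoded proteins are 48.4% identical over 186 aligned positions, more than either is to any other member.

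**Figure D3:**
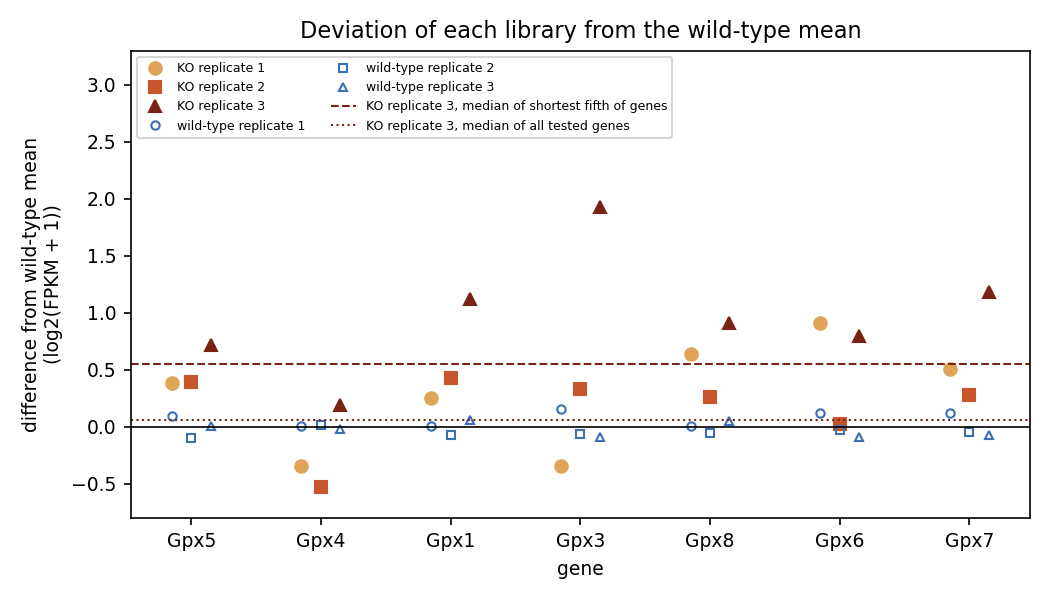
Difference of each library from the wild-type mean on the log2(FPKM + 1) scale for each glutathione peroxidase (open blue markers wild-type, filled markers KO by replicate). The dashed and dotted lines give the medians of KO replicate 3 over the shortest length class of tested genes (0.55) and over all tested genes (0.05). KO replicate 3 is the highest of the 6 libraries for 6 of the 7 members, and Gpx4 is the member with KO replicates 1 and 2 below wild-type.

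Gpx1, Gpx4 and Gpx8 fall in the same length class, as do Gpx6 and Gpx7, for which no ratio to Gpx4 was taken. Ratios within a library need no scaling between libraries. They were not among the planned comparisons. The divisor, Gpx4, was the member with a negative change, so lower Gpx4 values raise both ratios. The ratio of Gpx1 to Gpx4 was 0.474, 0.445 and 0.501 in the wild-type libraries, against 0.717, 0.922 and 0.901 in the KO. The ratio of Gpx8 to Gpx4 was 0.392, 0.371 and 0.411 against 0.778, 0.679 and 0.644. For both ratios the genotypes did not overlap, and how often this holds for other pairs of genes was not computed. KO replicate 3 lay between the other KO libraries for Gpx1 and was the nearest to wild-type for Gpx8. The selenocysteine members Gpx1, Gpx3 and Gpx4 spanned changes from -0.23 to 0.64 and the cysteine members from 0.50 to 0.66, so the ranges overlapped.

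The genes whose profiles lay nearest to that of Gpx5, among 849 others with a mean of at least 100 FPKM, were Npc2, Zfp185, Arl4c, Hnrnpa2b1 and Hnrnpab. Their root mean square difference from Gpx5 over the 6 libraries, each profile taken relative to its wild-type mean, was 0.05 to 0.09 on the log2 scale. Npc2, a sterol-binding protein of lysosomes and of epididymal fluid, was at 416, 367 and 375 FPKM in the wild-type libraries, against 530, 475 and 645 FPKM in KO libraries. Like Gpx5, Npc2 was higher in every KO library and highest in KO replicate 3, a likeness that comes with its choice by nearness. Within the family Gpx8 ranked 35 and Gpx1 63 by nearness to Gpx5, while Gpx4 and Gpx3 ranked 693 and 716. Nearest to Gpx3 were Defb29, Gamt, Defb18, Pebp1 and Ctsl, at 0.18 to 0.24. Defb29, a beta-defensin gene, was at 125, 96.3 and 114 FPKM in the wild-type libraries, against 86.5, 172 and 355 FPKM in KO libraries. KO replicate 1 was low and KO replicate 3 high as in Gpx3, which again comes with the choice.

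Genes that supply glutathione had changes on both sides of 0. Of 9 genes in that list, all tested, 0 passed in either direction (limma, 3 at an unadjusted p under 0.05), and the median change was 0.05. Over all tested genes 17.5% reached an unadjusted p under 0.05, the share to set beside this count and those of the lists below. The most abundant were G6pdx, which makes the NADPH that recycles glutathione, at 108 ± 1.74 and 121 ± 13.8 FPKM, and Gclm, the regulatory subunit of the enzyme that starts glutathione synthesis, at 83.1 ± 1.03 and 76.3 ± 14.2 FPKM (SD, n = 3). Slc7a11, the cystine importer, had the largest change of the list and was named after its values were seen: its wild-type values were 7.73, 8.86 and 7.61 FPKM and its KO values 6.99, 0.945 and 0.503 FPKM (limma, adjusted p = 0.251). The genotypes were apart, but KO replicate 1 was near wild-type. The others at an unadjusted p under 0.05 were Gsr and Ggct, also named after their values were seen. Gsr averaged 23.9 and 29.2 FPKM in wild-type and KO, and Ggct 25.1 and 42.4 FPKM (limma, adjusted p = 0.204 and 0.270). Gsr, Ggct and G6pdx were higher in every KO library, as were 16.8% of tested genes.

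Other enzymes that remove peroxide or superoxide were spread around 0. Of 16 genes, 15 were tested, 0 passed (limma, 2 at an unadjusted p under 0.05) and the median change was 0.04. The 2 were Srxn1 and Prdx4, named after their values were seen. Srxn1 averaged 15.6 and 31.1 FPKM in wild-type and KO, and Prdx4 31.4 and 44.7 FPKM (limma, adjusted p = 0.211 and 0.215). Both were higher in every KO library, against 16.8% of tested genes, and Sod3 was lower in every one, against 16.1%. Prdx1, a peroxiredoxin of the cytosol, was at 529.5 ± 10.98 and 540.0 ± 115 FPKM, and Sod1, the cytosolic superoxide dismutase, at 511 ± 11.2 and 689.9 ± 262 FPKM (SD, n = 3). The untested gene was Gpx2, the glutathione peroxidase of the gut epithelium, which was at most 0.140 FPKM and read 0 in all KO libraries and in wild-type replicate 3.

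The machinery and the other products of selenocysteine insertion had median changes near 0 as lists. Of 8 factors of selenoprotein synthesis 0 passed (limma, 0 at an unadjusted p under 0.05), with a median of 0.02. Its most abundant members were Trnau1ap, which binds the selenocysteine tRNA, at 51.1 ± 2.62 and 41.6 ± 9.62 FPKM, and Secisbp2l at 23.7 ± 0.17 and 24.4 ± 2.94 FPKM (SD, n = 3). Of 16 other selenoproteins 15 were matched and 13 tested, 0 passed (limma, 1 at an unadjusted p under 0.05), and the median was -0.02. Sep15, a selenoprotein of the endoplasmic reticulum, was at 191 ± 6.76 and 206 ± 36.7 FPKM, and Sepp1, the selenium carrier of plasma, at 166 ± 6.88 and 166 ± 39.3 FPKM. The 1 gene at an unadjusted p under 0.05 was Txnrd3, a thioredoxin and glutathione reductase of the testis, named after its values were seen. Its wild-type values were 18.8, 17.8 and 18.6 FPKM and its KO values 11.6, 5.56 and 5.41 FPKM (limma, adjusted p = 0.139). Of the 13 tested, 3 were lower in every KO library, against 16.1% of tested genes, and 0 were higher, against 16.8%. These were Txnrd3, Selt and Selm, also named after their values were seen. Selm averaged 20.4 FPKM in wild-type and read 13.8, 16.8 and 2.29 FPKM in KO libraries (limma, adjusted p = 0.368).

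Enzymes of disulfide formation in the endoplasmic reticulum include the protein disulfide isomerases that partner Gpx7 and Gpx8. That list had a median change of 0.22 over 8 tested genes, of which 0 passed (limma, 1 at an unadjusted p under 0.05). The 1 gene was Prdx4, which is also among the other peroxide enzymes. Pdia6 was at 737, 711 and 735 FPKM in the wild-type libraries, against 1084, 547 and 1428 FPKM in KO libraries, and Pdia3 at 627, 599 and 620 against 926, 463 and 942 FPKM. For these protein disulfide isomerases KO replicate 2 was below wild-type and the other two KO libraries above, whereas Gpx7 and Gpx8 were above wild-type in all 3. Of 6 transcription factors linked to Gpx5 or to caput genes, 0 passed (limma, 3 at an unadjusted p under 0.05) and the median change was -1.0005. The ETS factor Etv5 had wild-type values of 209.6, 210.6 and 209.7 FPKM, against 143, 74.0 and 16.3 FPKM for the KO (limma, adjusted p = 0.266). Its relative Etv4 had values of 43.5, 51.6 and 53.8 against 40.4, 7.22 and 0.883 FPKM (limma, adjusted p = 0.282).

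**Figure D4:**
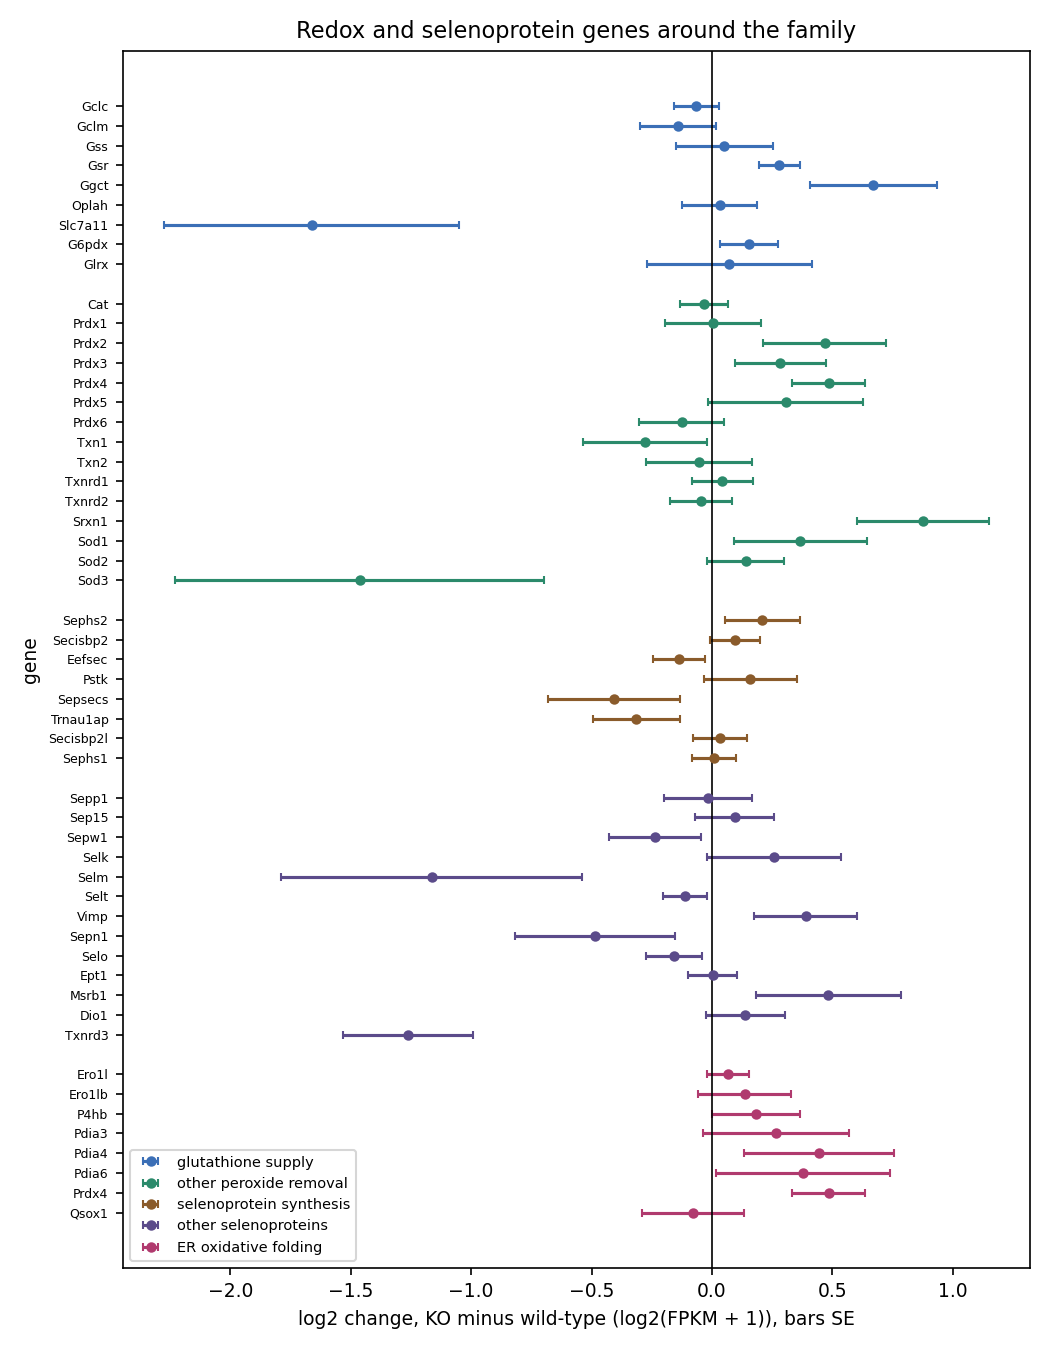
Log2 change, KO minus wild-type on the log2(FPKM + 1) scale, with its SE, for each tested gene of 5 lists (colours): glutathione supply, other peroxide removal, selenoprotein synthesis, other selenoproteins and oxidative folding in the endoplasmic reticulum. Most genes lie near 0, and the largest negative changes are those of Slc7a11 at -1.66, Sod3 at -1.46 and Txnrd3 at -1.26. The largest positive changes are those of Srxn1 at 0.88 and Ggct at 0.67.

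Cell markers differed between the libraries that carry these values. For luminal principal cells, the main source of secreted caput proteins, 10 of 10 genes were in the table and their summed level, which is mostly that of Spag11b, was 29467 to 33115 FPKM in the wild-type libraries, against 47522 to 60622 FPKM in KO libraries. Of its 9 tested genes 7 had a positive change, against 51.6% of all tested genes, and 6 were higher in every KO library, against 16.8%. Crisp1 (365 and 115 FPKM on average in wild-type and KO) and Aqp9 (43.8 and 17.5 FPKM) were lower in every KO library, against 16.1%. The median differences from wild-type of its tested members were 0.35, 0.12 and 0.66 in KO replicates 1, 2 and 3, beside 0.39, 0.28 and 0.91 for the glutathione peroxidases. Clear and narrow cell markers (5 of 5) summed to 108 to 109 FPKM in the wild-type libraries, against 99.8 to 192 FPKM in KO libraries, the highest in KO replicate 3 and the lowest in KO replicate 2. Of the 5 genes 3 were higher in every KO library, against 16.8% of tested genes. Atp6v0d2 (43.0 and 28.4 FPKM on average) was lower in every one, against 16.1%. In KO replicate 3 other cells were low: smooth muscle (7 of 7) summed to 224 FPKM against 2173 to 2444 FPKM in wild-type, and basal cells (5 of 5) to 27.0 against 159 to 165 FPKM. Fibroblasts (6 of 6) summed to 37.4 against 465 to 533 FPKM, and endothelium (5 of 5) to 1.22 against 47.9 to 51.6 FPKM. In KO replicates 1 and 2 the sums were 2418 and 858 FPKM for smooth muscle, 170 and 220.1 FPKM for basal cells, 188 and 414 FPKM for fibroblasts and 48.6 and 37.2 FPKM for endothelium. The smooth muscle sum was mostly Actg2, which averaged 1828 FPKM in wild-type and was at 306 FPKM in KO replicate 2, where the median difference of the list was 0.16 and Myh11 read 74.0 FPKM against a wild-type mean of 55.3 FPKM. Macrophage markers (7 of 7) summed to 175 to 184 FPKM in the wild-type libraries, against 113 to 258 FPKM in KO libraries. Slc9a3 was listed at 0 in a library among the principal cell markers and Prm2, Tnp1, Odf1, Acrv1 and Spata19 among the sperm markers. The part of these cell markers in the glutathione peroxidase values was not tested.

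**Figure D5:**
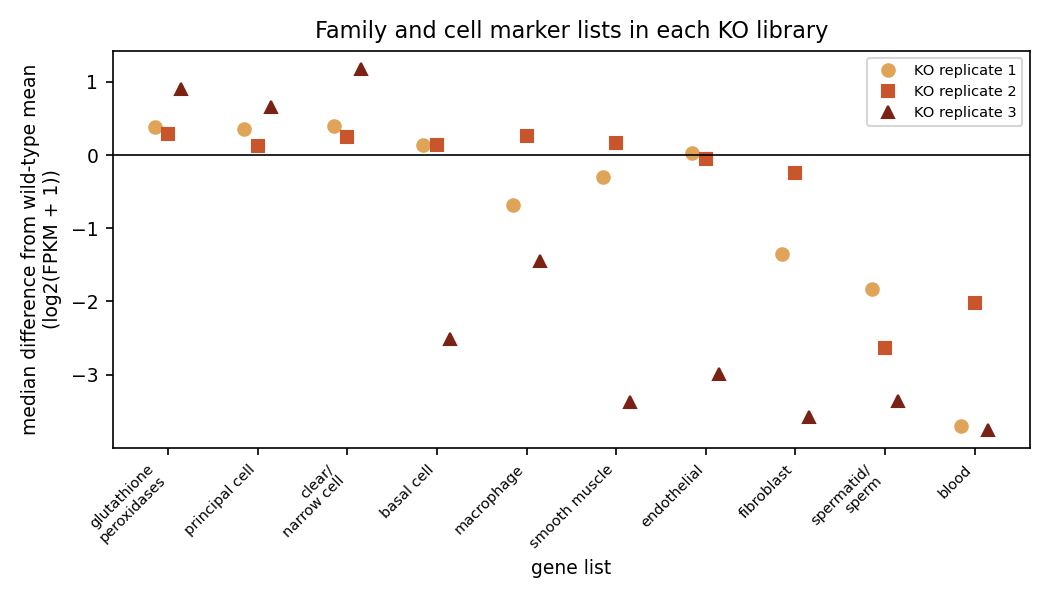
Median difference from the wild-type mean on the log2(FPKM + 1) scale in each KO library for the glutathione peroxidases and 9 lists of cell markers. The medians of the peroxidases, the principal cell list and the clear and narrow cell list lie above 0 in all 3 KO libraries, though single markers of both cell lists lie below, while smooth muscle, endothelial, fibroblast and basal cell markers are lowest in KO replicate 3.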

How the data were processed

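RNA of the caput epididymis was sequenced in 3 wild-type and 3 KO libraries made with a stranded mRNA kit, per the labels' protocols. The submitters' processing notes name TopHat2 2.1.1, Cufflinks 2.2.1 and the mm10 build. The sources used here do not give the annotation, the strand setting or how libraries were scaled to each other. Per the file headers, the authors deposited FPKM values and normalized counts, a signal that is no longer a raw count. In each library 98.4% to 98.7% of normalized counts below 300 lay within 0.05 of a whole multiple of the library's step. If a step is 1 fragment, the libraries hold 16498384 to 19723815 fragments; no reads were used to check this.

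Genes whose mean reached 1 FPKM were tested with limma 3.58.1 in R 4.3.3 on the log2(FPKM + 1) scale, in a model of genotype alone, a mean-variance trend and Benjamini-Hochberg adjustment over all tested genes, two-sided, at 0.05. All changes are on that scale, which understates the change of low genes. Shares of the normalized counts were compared by an exact permutation test (scipy 1.17.1). Pairs of wild-type libraries differed beyond counting noise (chi-square per degree of freedom 2.75 to 4.32).

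The members and the gene lists were chosen with earlier results of these data known. All members are named; of each list the genes past the threshold are named, or else the 2 of highest mean, and the 5 genes nearest to Gpx5 and to Gpx3. Of the cell marker lists the summed levels and the genes past the threshold are given, and single markers named besides these were chosen after their values were seen. Alternatives were other pseudocounts, filters, scalings, moderation and weights, normalized counts, the replicate block and each library left out. Removal of the length trend (lowess, span 0.5, on normalized count per FPKM) was added after the data were seen. Gene spans are from RefSeq (GRCm38.p6) by NCBI gene ID, and catalytic codons were placed by global alignment of translated GENCODE coding sequences to Gpx1.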

Additional observations from a re-analysis of the deposited data

How the results depend on the processing

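The number of genes past the threshold, 32 of 12799 with limma, depended on the processing: it was 16 with a pseudocount of 0.1, 11 with 0.01, 6 with normalized counts as the measure, 17 with a minimum mean of 5 FPKM, 101 with no filter on low values, 106 with quantile normalization and 302 with library weights. It was 2 when any 1 wild-type library was left out. Leaving out KO replicate 1, 2 or 3 gave 541, 17 and 631, and 635 without the third and with the length trend removed. Of the 7 glutathione peroxidases 0 passed under any of these except for 1, Gpx4, with the length trend removed and without KO replicate 3. The change of Gpx5 was 0.45 to 0.55 over the fits without 1 wild-type library and 0.39 to 0.55 over those without 1 KO library, and 0 with quantile normalization. Gpx3 changed sign without KO replicate 3 (-0.0049, or -0.015 with the length trend also removed), and the leave-one-out fits ran up to 1.13; the cause was not tested. Gpx1, Gpx6, Gpx7 and Gpx8 kept a positive change under all 18 alternatives, with lowest adjusted p of 0.0862, 0.0875, 0.0734 and 0.0654. The difference in the Gpx5 share was 1.58 to 2.12 percentage points over its 8 alternatives. Deviations of same-numbered libraries had correlations of -0.11, 0.03 and 0.08, beside -0.12 to 0.14 for libraries of unlike number. With 3 libraries a genotype and the wide KO spread, these values cannot decide whether the replicate numbers pair the libraries. With the replicate block 1 gene passed and no glutathione peroxidase, and the exact p of the Gpx5 share was 0.25, the smallest that 3 pairs allow. With 3 libraries a genotype and a wide KO spread, changes of the size seen here are hard to separate from the spread. For Gpx5 the result also depended on the moderation, with an SE of 0.55 with the mean-variance trend and 0.13 without it.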
